A study of Mus musculus with 6 samples.

Results

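Caspases are cysteine proteases that cut proteins after aspartate. The genes described here are 6 caspase genes and 2 genes of caspase inhibitors, taken by symbol from the series table of 51810 genes, and all 8 were found there: Casp2, Casp8 and Casp9, which encode initiator caspases, Casp6, which encodes an executioner caspase, Casp1 and Casp12, which belong to the inflammatory group, and the inhibitors Xiap and Cflar. They were read in 6 RNA sequencing libraries of mTEChi, mature medullary epithelial cells of the mouse thymus, sorted at 75000 cells per sample from animals of 4 to 5 weeks. The WT group (3 libraries, genotype P53-WT, titled NoCre) carries no Cre. The cKO group (3 libraries, genotype P53-cKO) has a conditional deletion of Trp53, the gene of the transcription factor p53. The labels used here do not give the Cre driver, the strain or the sex, nor whether each library came from its own animal, so the replicate spread behind each p-value may be partly technical.

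In the intrinsic route to cell death, cytochrome c released from mitochondria lets APAF1 activate caspase-9, and in the extrinsic route death receptors activate caspase-8 through the adaptor FADD. Both initiators switch on executioner caspases. XIAP binds and blocks caspase-9 and the executioners, and the product of Cflar, called cFLIP, resembles caspase-8 without its protease activity and controls caspase-8 at the receptor. Caspase-1 is activated in inflammasomes and matures interleukin-1. Mature medullary cells turn over quickly, and p53 is a known inducer of cell death genes, so the comparison bears on what loss of p53 leaves of the death machinery at the RNA level.

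The feature that makes a protein a caspase is shown first, since it separates the 6 proteases from Cflar. Each sequence is the 33 bases around the codon of the catalytic cysteine, 5′ to 3′, in the longest reading frame among the protein-coding GENCODE M21 transcripts (GRCm38) of the gene, with that codon in capitals. For Cflar, which lacks the caspase active-site motif, it is the best ungapped match to the Casp8 stretch, with the matching codon in capitals.
Casp2: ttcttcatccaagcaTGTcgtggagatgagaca
Casp8: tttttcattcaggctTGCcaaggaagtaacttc
Casp9: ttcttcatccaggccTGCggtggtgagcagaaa
Casp6: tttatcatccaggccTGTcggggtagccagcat
Casp1: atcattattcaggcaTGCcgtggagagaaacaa
Casp12: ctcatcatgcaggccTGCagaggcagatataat
Cflar: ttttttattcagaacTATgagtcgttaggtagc

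The caspase windows were placed by searching for the active-site motif, which includes the cysteine. All 6 therefore hold TGC or TGT, the codons of cysteine, by the way they were chosen. The Cflar window was placed by its match to Casp8 instead, and had TAT, a codon of tyrosine. These windows lie in coding exons on the plus strand. In Casp1 (chromosome 9, 5303750 to 5304194, exons 6 and 7 of 10), Casp2 (chromosome 6, 42276761 to 42279784, exons 8 and 9 of 11), Casp9 (chromosome 4, 141807238 to 141811546, exons 6 and 7 of 9) and Casp12 (chromosome 9, 5353844 to 5354541, exons 7 and 8 of 11), an exon ends at base 25 of the window. In Casp6 (chromosome 3, 129910687 to 129912138, exons 5 and 6 of 7) it ends at base 12. In Casp8 (chromosome 1, 58844604 to 58844636, exon 9 of 10) and Cflar (chromosome 1, 58752608 to 58752640, exon 10 of 11) the window lies within 1 exon. Cflar and Casp8 are neighbours, 36.5 kb apart with 1 annotated gene between them, and Casp1 and Casp12 lie 38.1 kb apart with Casp4, another inflammatory caspase gene, between them.

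Each library held 45457892 to 50128045 counts. Trp53, the deleted gene, had 102 to 116 CPM (counts scaled to library size) in WT and 7.38 to 8.16 CPM in cKO, and every library matched its label. The mTEC markers Aire, Epcam and H2-Aa were abundant in both groups, at 1306, 497 and 8744 CPM in WT against 1047, 563 and 8615 in cKO. Of 12 mTEC markers 0 passed the edgeR test and 6 had positive log2 fold changes. The groups did not overlap for 4 of the 12, beside 14.4% of all genes tested, in either direction. Of these 4, Aire (−0.32) and Fezf2 (−0.16) were at lower levels in cKO. Cldn3 (0.36, the smallest p of the list, edgeR adjusted p = 0.246) and Tnfrsf11a (0.15) were at higher levels. Their part in the results was not tested. No marker of thymocytes, B cells, myeloid cells, fibroblasts and endothelium, or red cells was at 0 in all libraries. Over the 6 libraries thymocyte genes summed to 74.9 to 145 CPM and B cell genes to 64.0 to 79.8 CPM. Fibroblast and endothelial genes summed to 135 to 165 CPM, and myeloid genes to 543 to 949 CPM. The 6 red cell genes summed to 73.5 to 81.4 CPM in WT against 49.6 to 72.5 CPM in cKO, without overlap, and their part in the results was not tested. In bulk samples, fewer cells of a type and less RNA per cell cannot be told apart.

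All 8 genes were expressed in WT cells, over a wide range of levels. On the deposited TPM scale (corrected for library size and gene length), the WT order was Casp1 at 128 ± 9.0 (SD, n = 3), Cflar at 75.1 ± 1.36, Casp8 at 42.8 ± 2.69, Xiap at 25.9 ± 2.31, Casp6 at 16.9 ± 1.10, Casp2 at 12.7 ± 1.74, Casp9 at 10.4 ± 1.24 and Casp12 at 4.28 ± 1.47. The order was the same in cKO, and in both groups the ranges of neighbours in this order did not overlap except for Casp2 and Casp9. Among the genes tested that have a deposited TPM, Casp1 stood at percentile 96.0 in WT, and Casp12 at percentile 42.4. Casp4, the inflammatory caspase gene between Casp1 and Casp12, had a WT mean of 87.1 TPM, and Casp14, a caspase of cornifying skin, had 8.04 TPM.

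**Figure D1:**
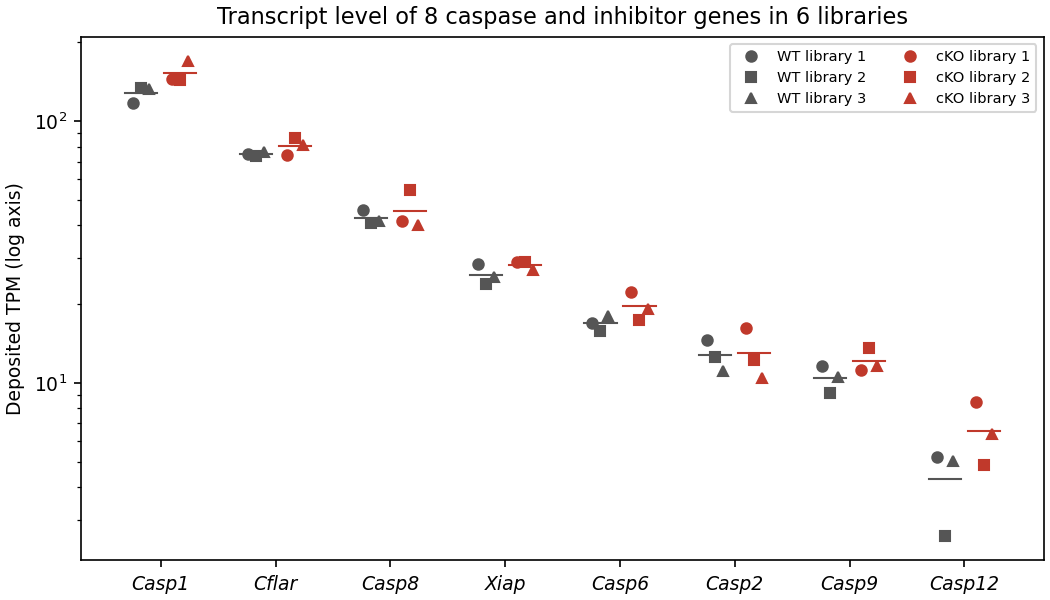
Deposited TPM on a log axis for each of the 8 genes, with 3 WT libraries in grey and 3 cKO libraries in red; marks are libraries and bars are group means. The order from Casp1 to Casp12 is shared by both groups, and only for Casp1 do the cKO libraries all lie above the WT libraries.

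None of the 8 genes passed the test between genotypes. The edgeR quasi-likelihood test with Benjamini-Hochberg adjustment over 28543 genes called 0 of 8 at an adjusted p under 0.05, where 0.0596% of all genes tested (17 genes) passed, and DESeq2 also called 0. At an unadjusted p under 0.05 there were 2 of 8, Casp1 and Casp12, both higher in cKO, beside 8.51% of all genes. That number was 1 or 2 under the other settings, and 1 with upper-quartile scaling or library totals. With 1 library left out it ranged from 0 (without cKO library 3) to 3 (without cKO library 2). The log2 fold changes (cKO over WT) were positive for all 8, with a median of 0.15 against −0.01 over all genes tested, of which 49.0% were positive. For Casp2 the sign turned with scaling by upper quartiles or by library totals.

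**Figure D2:**
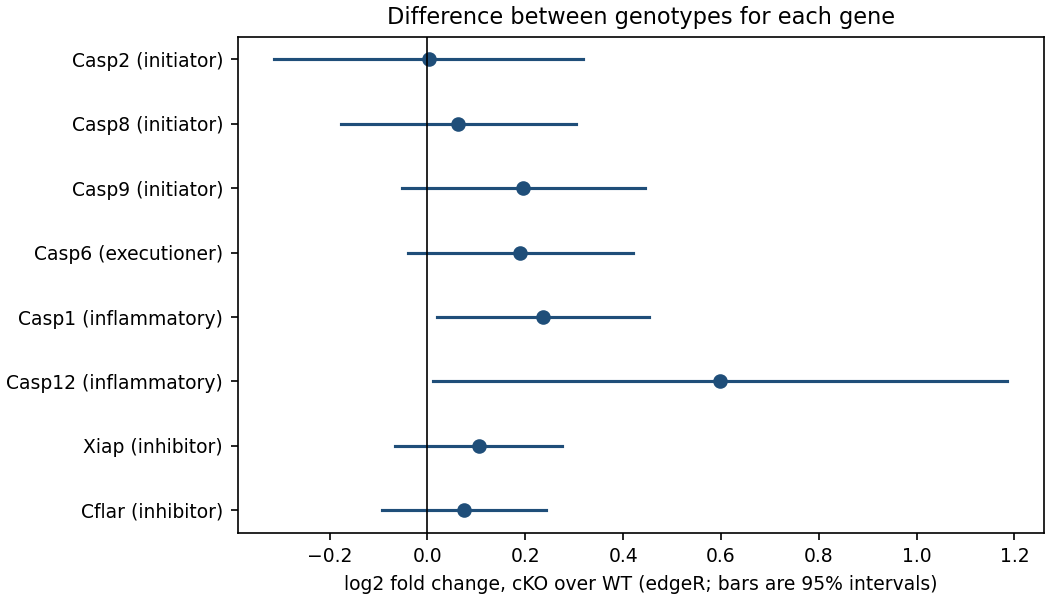
Log2 fold change of each gene (point) with its 95% interval (bar), cKO over WT, ordered by role. Intervals of Casp1 and Casp12 start just above 0, at 0.02 and 0.01, before any adjustment for the number of genes, and the other 6 include 0.

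The initiator genes differed little. Casp2, an initiator linked to DNA damage and abnormal chromosome number (ENSMUSG00000029863, chromosome 6, 42264985 to 42282508 in mm10), had 14.6, 12.5 and 11.1 TPM in WT libraries 1 to 3 and 16.2, 12.3 and 10.4 TPM in cKO libraries 1 to 3. The groups overlapped completely, and library 1 was the highest in each. Its log2 fold change was 0.0027 (SE 0.145, edgeR adjusted p = 0.998), with a 95% interval from −0.31 to 0.32. It was −0.18 without cKO library 1 and 0.13 without cKO library 3.

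Casp8, the initiator of the death receptor route (ENSMUSG00000026029, chromosome 1, 58795374 to 58847503), had 45.8, 40.8 and 41.7 TPM in WT and 41.7, 54.7 and 39.97 TPM in cKO. Only cKO library 2 lay above the WT range. The log2 fold change was 0.06 (SE 0.111, edgeR adjusted p = 0.924, 95% interval −0.18 to 0.30), and it was −0.08 without cKO library 2 and 0.13 without cKO library 1 or 3. Of the 25-base words of the Casp8 transcripts 10.4% also occur in transcripts of other genes, mostly Gm20257, which had a mean of 185 counts. The counting command did not ask for reads with several alignments, so the Casp8 level is uncertain to that extent.

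Casp9, the initiator of the mitochondrial route (ENSMUSG00000028914, chromosome 4, 141793612 to 141815976), had 11.6, 9.15 and 10.5 TPM in WT and 11.2, 13.6 and 11.6 TPM in cKO. The cKO mean was higher, but the lowest cKO library lay below the highest WT library. The log2 fold change was 0.20 (SE 0.115, edgeR adjusted p = 0.692, 95% interval −0.05 to 0.44). It was 0.12 without cKO library 2 and 0.13 without WT library 2. Of its exon bases 1.81% overlap exons of Cela2a and Ctrc on the other strand, which had means of 160 and 112 counts against 1023 to 1402 for Casp9, and counting ignored strand.

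Casp6, the executioner that cuts nuclear lamins (ENSMUSG00000027997, chromosome 3, 129901425 to 129914103), had 16.98, 15.8 and 17.99 TPM in WT and 22.3, 17.4 and 19.1 TPM in cKO. The groups overlapped only through cKO library 2 and WT library 3. The log2 fold change was 0.19 (SE 0.107, edgeR adjusted p = 0.678, 95% interval −0.04 to 0.42). Without cKO library 1, the highest, it was 0.10.

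Casp1 was the most abundant of the 8 and the only one whose groups did not overlap, beside 14.4% of all genes tested. This gene (ENSMUSG00000025888, chromosome 9, 5298508 to 5307290) had 159, 191 and 185 CPM in WT against 198, 194 and 238 in cKO. The lowest cKO library, at 194, lay close to the highest WT library, at 191, and cKO library 3 stood above the rest. The means were 178 ± 17.3 CPM in WT against 210 ± 24.6 in cKO (SD, n = 3 each), a log2 fold change of 0.24 (SE 0.0999, edgeR unadjusted p = 0.0347, adjusted p = 0.552). It was 0.14 without cKO library 3 and 0.16 without WT library 1.

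Casp1 is also expressed by myeloid cells, so the level of 12 myeloid markers is given beside it. Their summed level was 543, 742 and 672 CPM in WT against 652, 767 and 949 in cKO. WT library 1 was the lowest and cKO library 3 the highest, as for Casp1. Most of that sum was Lyz2, a lysozyme gene, with 435 to 603 CPM in WT against 548 to 828 in cKO. The other 11 markers, which include Csf1r, Itgam and Adgre1, summed to 123 ± 16.0 CPM in WT against 122 ± 18.3 in cKO (SD, n = 3 each), and their lowest library was cKO library 1. Of the 12 markers 7 had a positive log2 fold change and 0 passed the edgeR test. Siglech, lower in cKO, was the 1 of 12 at an unadjusted p under 0.05, beside 8.51% of all genes tested. The part of Lyz2-expressing cells in the Casp1 difference was not tested.

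**Figure D3:**
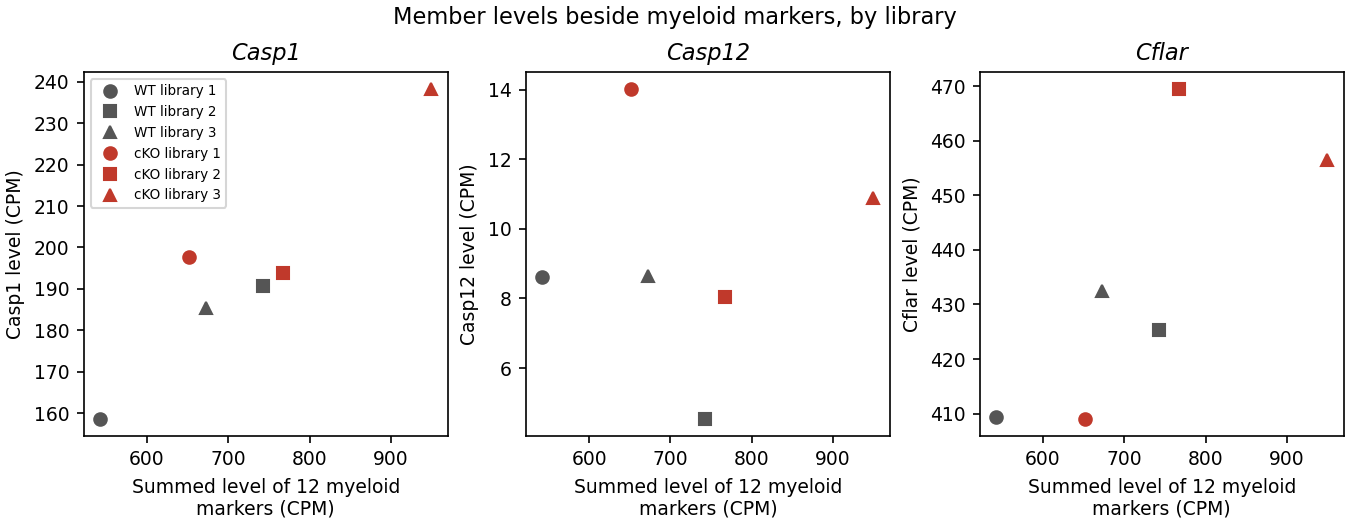
Level of Casp1, Casp12 and Cflar (CPM, vertical axes, which do not start at 0) against the summed CPM of 12 myeloid markers (horizontal axes) in the 3 WT (grey) and 3 cKO (red) libraries. For Casp1 the lowest library, at 159 and 543 CPM, and the highest, at 238 and 949 CPM, are the same on both axes, which is not so for Casp12.

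Casp12, a caspase of the inflammatory group that has been linked to stress of the endoplasmic reticulum (ENSMUSG00000025887, chromosome 9, 5345430 to 5373032), was the least abundant member and had the largest fold difference of the 8. It had 397, 214 and 422 counts in WT and 663, 370 and 544 counts in cKO, which is 8.60, 4.53 and 8.63 CPM against 14.02, 8.04 and 10.9 CPM. In each group library 2 was the lowest, and cKO library 2 lay below 2 of the WT libraries. The log2 fold change was 0.60 (SE 0.264, edgeR unadjusted p = 0.0465, adjusted p = 0.586), or 1.51-fold, with a 95% interval from 0.01 to 1.18. It was 0.35 without WT library 2 and 0.39 without cKO library 1. The coefficient of variation between libraries was 32.6% in WT and 27.2% in cKO, where counting error would give 5.39% and 4.36% if reads were independent.

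The inhibitors differed least in fold after Casp2 and Casp8. Xiap (ENSMUSG00000025860, chromosome X, 42059679 to 42109656) had 28.4, 23.9 and 25.4 TPM in WT and 29.0, 28.9 and 26.9 TPM in cKO, overlapping only through WT library 1. For Xiap the log2 fold change was 0.11 (SE 0.0786, edgeR adjusted p = 0.767, 95% interval −0.07 to 0.28), and 0.067 without WT library 2. Since Xiap is X-linked, 5 sex-linked genes were read beside it, and all 5 had positive log2 fold changes. Xist, the RNA of the inactive X, had 4.88, 2.81 and 4.85 CPM in WT against 4.95, 6.63 and 5.18 in cKO. The Y-linked Ddx3y had 59.7, 70.7 and 62.8 CPM in WT against 75.4, 77.8 and 80.6 in cKO. For both the groups did not overlap (log2 fold changes 0.42 and 0.28, edgeR adjusted p = 0.665 and 0.412). That is 2 of the 5 sex-linked genes, beside 14.4% of all genes tested, in either direction. Their part in the Xiap result was not tested. Cflar (ENSMUSG00000026031, chromosome 1, 58711508 to 58758884) had 75.1, 73.8 and 76.5 TPM in WT and 74.4, 86.2 and 80.9 TPM in cKO. cKO libraries 2 and 3 lay above all WT libraries, and cKO library 1 within their range. For Cflar the log2 fold change was 0.08 (SE 0.0772, edgeR adjusted p = 0.849), and it was 0.035 without cKO library 2 and 0.13 without cKO library 1. With 18887 to 22825 counts per library, Cflar had the narrowest interval, −0.09 to 0.24, which leaves out a rise above 1.18-fold. Of the Cflar words 10.4% are shared with other genes; the gene with the most, Gm9845, holds 4.52% and had a mean of 1681 counts.

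The ratio of inhibitor to target is given as a description, with no test. The TPM ratio of Cflar to Casp8 was 1.64, 1.81 and 1.83 in WT and 1.79, 1.57 and 2.02 in cKO, so the WT range lay inside the cKO range. The ratio of Xiap to Casp9 was 2.44, 2.61 and 2.41 in WT and 2.59, 2.12 and 2.33 in cKO, so cKO libraries 2 and 3 lay below every WT library and cKO library 1 within their range.

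Other genes of these pathways came from lists, and 0 of their genes passed by edgeR. Casp14 had 8.54 ± 1.48 and 6.62 ± 0.755 CPM (log2 fold change −0.37, adjusted p = 0.589).

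The other 9 genes of the inhibitor of apoptosis family, to which Xiap belongs, had a median of 0.16, with 6 positive, and 5 of 9 had an unadjusted p under 0.05, beside 8.51% of all genes tested. Of these, 4 were the NAIP genes, which encode inflammasome sensors of bacterial proteins. Naip2 had 43.4, 52.5 and 44.3 CPM in WT against 55.4, 64.7 and 58.8 in cKO (log2 fold change 0.35, SE 0.102, edgeR adjusted p = 0.343). Naip5 had 19.8 ± 2.39 and 25.8 ± 2.25 CPM (0.38, adjusted p = 0.406). Naip1 and Naip6, named after their values were seen, had 0.32 and 0.50. In all 4 the cKO libraries lay above the WT libraries, beside 14.4% of all genes without overlap in either direction, but these genes are close copies of each other, so their separate values are uncertain and they are not independent. The fifth was Birc5, the survivin gene of dividing cells, lower in cKO at −0.29.

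Of 16 inflammasome genes, 8 had positive and 8 negative log2 fold changes. An unadjusted p under 0.05 was found for 5 of 16, beside 8.51% of all genes tested, and these 5 were higher in cKO. Nlrp3, a sensor that activates caspase-1, had 6.55, 6.77 and 6.997 CPM in WT against 7.13, 12.02 and 13.3 in cKO (log2 fold change 0.67, SE 0.204, edgeR adjusted p = 0.381). Nlrc4, the partner of the NAIP proteins, had 16.5, 16.9 and 14.2 CPM in WT against 17.9, 22.3 and 20.1 in cKO (0.34, SE 0.126, adjusted p = 0.482). The adaptor gene Pycard (−0.04), the pore gene Gsdmd (−0.16) and the caspase-1 substrate Il1b (−0.16) were among the negative ones.

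In the mitochondrial pathway the median over 15 genes was −0.01. An unadjusted p under 0.05 was found for 3 of 15, beside 8.51% of all genes tested, and these 3 were lower in cKO. Bbc3, which encodes the p53-induced killer protein PUMA, had 22.7, 22.3 and 25.6 CPM in WT against 18.02, 16.6 and 15.8 in cKO, with no overlap (log2 fold change −0.49, SE 0.114, edgeR adjusted p = 0.226). DESeq2 gave it an adjusted p of 0.0232, and it was the 1 gene of these lists that DESeq2 called. Over all genes DESeq2 called 137 higher and 49 lower in cKO, where edgeR called 7 and 10. Bax, a pore-forming killer gene and p53 target, had 38.0 ± 3.55 and 29.0 ± 4.48 CPM (−0.39, SE 0.123, adjusted p = 0.404). Apaf1, which activates caspase-9, was the third at −0.18.

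The death receptor list had a median of 0.01 over 17 genes. An unadjusted p under 0.05 was found for 5 of 17, beside 8.51% of all genes tested, with 3 higher and 2 lower. Tnfrsf10b, a receptor upstream of caspase-8, had 76.2 ± 5.67 and 65.0 ± 5.16 CPM (log2 fold change −0.23, SE 0.0928, edgeR adjusted p = 0.536). Its ligand gene Tnfsf10 had 39.9 ± 4.21 and 47.6 ± 3.84 CPM (0.26, SE 0.105, adjusted p = 0.537). The 2 genes of the PIDDosome, the complex that activates caspase-2, had −0.25 for Pidd1 and 0.12 for Cradd (adjusted p = 0.740 and 0.9002). Of 10 genes of stress in the endoplasmic reticulum, 5 were positive and 5 negative; Dnajb9 had 0.26 and Atf4 −0.21 (adjusted p = 0.479 and 0.494).

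**Figure D4:**
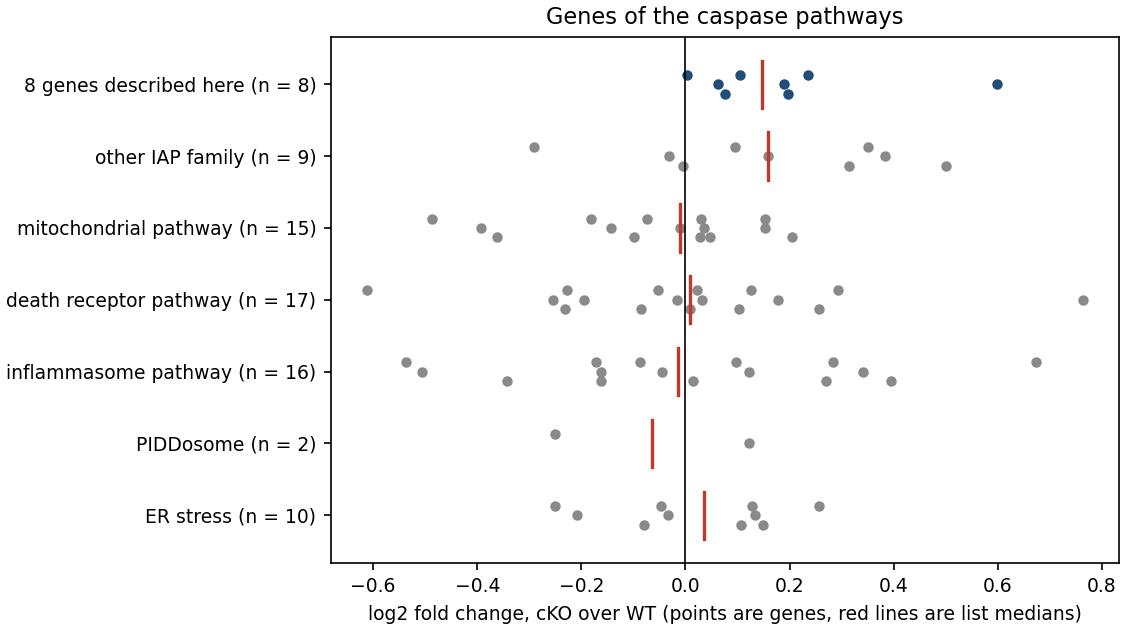
Log2 fold changes (cKO over WT) of the tested genes of each list; points are genes and red lines are list medians. The 8 genes described here have positive values, with Casp2 almost on 0 (0.0027), and a median of 0.15. The other 9 genes of the inhibitor of apoptosis family have a median of 0.16. The medians of the 15 mitochondrial, 17 death receptor and 16 inflammasome genes lie near 0.

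The genes with levels most like those of Casp1 over the 6 libraries, by Pearson's r of log2 CPM, were Igkv6-29 (r = 0.997), an immunoglobulin gene segment, Sar1b (r = 0.995), a gene of vesicle transport, and Clec4a3 (r = 0.991), a lectin gene of myeloid cells. They are the top 3 of 28543 genes over 6 points that share the library and the genotype, so the r values are descriptions. Igkv6-29 and Clec4a3 had few reads, at 88 to 205 and 12 to 50 counts per library. Sar1b had 60.2 ± 6.48 CPM in WT against 70.4 ± 9.52 in cKO (log2 fold change 0.23, edgeR adjusted p = 0.623).

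The upstream sequence of Casp1 and Casp12 is shown because these neighbours were the 2 members with an unadjusted p under 0.05 in the main test. Each is the 250 bases before the RefSeq start (GRCm38.p6), 5′ to 3′, with matches to the motifs named next in capitals.
Casp1, chr9:5298267-5298516, plus strand: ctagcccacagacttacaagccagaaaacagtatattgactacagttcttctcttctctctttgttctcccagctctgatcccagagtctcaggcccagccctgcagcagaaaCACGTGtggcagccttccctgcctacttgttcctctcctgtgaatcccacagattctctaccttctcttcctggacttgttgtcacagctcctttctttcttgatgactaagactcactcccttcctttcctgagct
Casp12, chr9:5345226-5345475, plus strand: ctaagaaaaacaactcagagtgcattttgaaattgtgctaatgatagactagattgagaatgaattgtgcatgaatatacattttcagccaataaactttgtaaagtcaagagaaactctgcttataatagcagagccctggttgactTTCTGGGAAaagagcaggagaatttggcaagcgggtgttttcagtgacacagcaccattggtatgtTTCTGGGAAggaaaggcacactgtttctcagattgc

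Casp12 holds TTCNNNGAA, the letters of the interferon-gamma activated sequence, 102 and 36 bases before the RefSeq start. The annotation used for counting starts Casp12 at 5345430, within this window, so the match at 36 bases lies inside the gene as counted. Casp1 holds CACGTG, an E-box, 137 bases before its RefSeq start. RefSeq promoters were matched for all 8 genes, in 10 windows since Xiap has 3. TTCNNNGAA is in 7.04% of all 32536 windows of this length, on either strand, and CACGTG in 6.04%. GAAANNGAA, a part of the interferon-stimulated element, is in 7.15% of all windows and in 1 of the 10, of Xiap. The p53 half-site consensus is in 7.12% of all windows and in 0 of these 10, which says only that these letters are not in these windows. None of these motifs overlapped another in the windows printed, and a match is not shown to be a site.

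**Figure D5:**
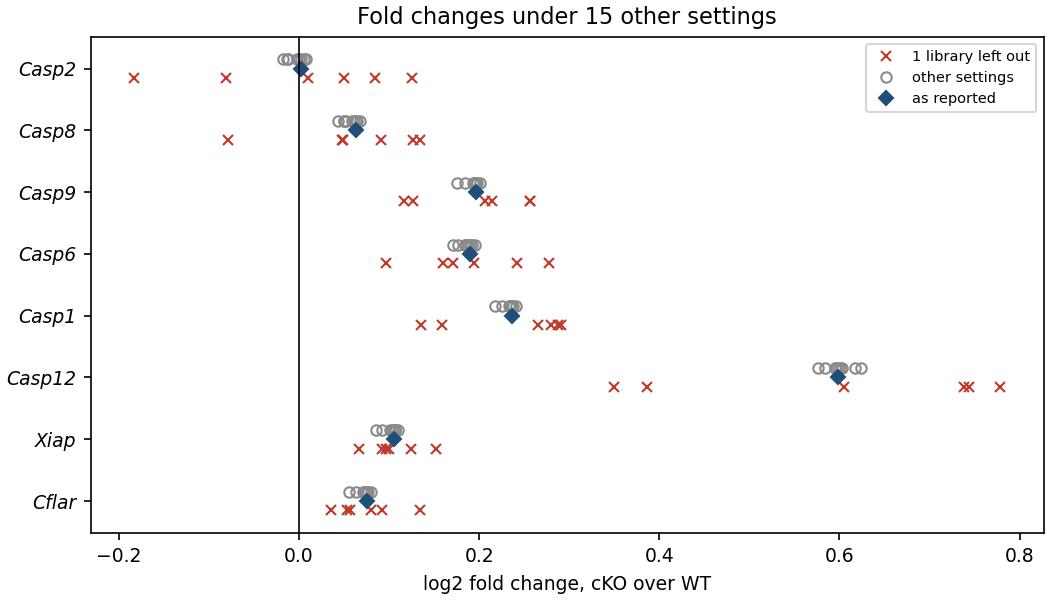
Log2 fold change of each gene as reported (diamond), under 9 other settings of the analysis (circles) and with 1 library left out (crosses). Casp2 falls on both sides of 0 under either kind of change and Casp8 with 1 library left out, while the other 6 stay above 0 in all 15.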

How the data were processed

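RNA was measured in 6 libraries (3 WT, 3 cKO). The deposited counts are whole reads per gene: per the file headers, featureCounts 2.0.0 summed exons by gene on Ensembl release 99 (GRCm38), ignoring strand and counting a read for each gene it overlaps. TopHat2 2.1.1, SAMtools 1.9 and Subread 2.0.1 on mm10 are named per the submitters' processing notes. Each mate was counted as a read, since no option for pairs is given, per the file headers. The authors' series table repeats these counts for 51810 of 55385 genes and adds TPM, made by the authors; 1 further column, counts per kilobase, was not used. 

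Counts were tested with edgeR 4.0.16 in R 4.3.3 (TMM, filterByExpr, robust quasi-likelihood F test, adjusted over 28543 genes, threshold 0.05). CPM values are TMM scaled. SE is the log2 fold change over the square root of F, and 95% intervals use the test's degrees of freedom. DESeq2 1.42.0, limma-voom (limma 3.58.1), other scalings, filters and left-out libraries were alternatives. Named genes are the 8 members, Trp53, other caspases, the 2 genes of smallest p in each pathway list and the 3 genes most like the member of smallest p; others were named after their values were seen. The members and lists were chosen with earlier results of these data known. Symbols of 2 list genes were not in the series table: Tradd was matched through a table of gene names, and Casp16-ps, which shares its gene identifier with the row Casp16, had too few reads to be tested. Some results of the list of other caspases are not reported here. Ddit3 is listed on 2 rows, and the one with more counts was used.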

Additional observations from a re-analysis of the deposited data

How the results depend on the processing

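Across 15 other fits 0 of the 8 genes passed, and the lowest adjusted p of any was 0.0644, for Casp12 with the replicate number as a block. The counts over all genes, 7 higher and 10 lower in cKO, became 108 and 52 with no filter on low counts, 137 and 49 with DESeq2, 0 and 6 without robust estimation, and 138 and 65 with the replicate block; the cause was not tested. Leaving out 1 library gave 0 to 7 higher and 5 to 9 lower. The log2 fold change of Casp2 turned to −0.013 with upper-quartile scaling, −0.018 with library totals, −0.0022 with a filter of 1 CPM in 3 libraries, −0.013 with limma-voom and −0.012 with the replicate block, and ranged from −0.18 to 0.13 with 1 library left out. Casp8 ranged from −0.079 to 0.13, Casp1 from 0.14 to 0.29, Casp12 from 0.35 to 0.78, Casp6 from 0.097 to 0.28, Casp9 from 0.12 to 0.26, Xiap from 0.067 to 0.15 and Cflar from 0.035 to 0.13 in those fits.

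Replicate numbers were not treated as pairs in the main test. The deviations of same-numbered libraries correlated over genes at 0.11, 0.05 and 0.08, and each library correlated best with its own number. Whether the numbers mark pairs was not tested. The block changed no call among the 8 genes; Casp12 had 0.62 (SE 0.148) with it. Counting error was 0.686% to 5.39% of the mean count for these genes if reads were independent, and the coefficient of variation between libraries was larger for all 8 in both groups.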

Other observations

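Among 8 genes whose proteins executioner caspases cut, 0 passed the edgeR test in cKO against WT. An unadjusted p under 0.05 was found for 1 of 8, beside 8.51% of all genes tested. Lmnb1, which encodes the nuclear lamin B1, had 36.7 ± 5.02 CPM in WT against 27.9 ± 4.59 in cKO (SD, n = 3 each, log2 fold change −0.40, SE 0.135, edgeR adjusted p = 0.434). Krt19, a keratin gene, had 39.8 ± 3.77 and 46.5 ± 7.48 CPM (0.22, SE 0.122, adjusted p = 0.665). Krt18, the most abundant of the 8 in TPM, had 1299 TPM in WT and 1296 TPM in cKO.

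The TPM ratio of Casp1 to its neighbour Casp12 was 22.6, 51.6 and 26.3 in WT and 17.3, 29.5 and 26.8 in cKO. WT library 2, which had the fewest Casp12 reads, gave the highest ratio.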
